A study of Mus musculus with 9 samples.

Results

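Of the 1881 mouse miRNAs on the arrays, 8 are described here: mmu-miR-3102-5p, mmu-miR-149-3p, mmu-miR-1904, mmu-miR-3960, mmu-miR-211-3p, mmu-miR-3077-5p, mmu-miR-677-3p and mmu-miR-3473g. They were chosen by name as mostly dim miRNAs with older registry numbers that read lower in livers of mice on a high fat diet than in livers of mice on chow. Measured values of that contrast therefore picked them, and the contrast is only described below. Below, names are given without the species prefix mmu. A total of 143 miRNAs could be tested, all 8 of these among them.

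Liver was taken from male C57BL/6J mice at 20 weeks of age. The Metformin mice were fed a high fat diet (45% of calories as fat) for 17 weeks from 3 weeks of age, with 3 mg/kg/day of the glucose-lowering drug metformin by stomach tube for the last 5 weeks. The High fat diet mice ate the same diet for the same time and received saline by stomach tube over those 5 weeks. The Control mice ate chow for 17 weeks, and no vehicle treatment is named for them in the labels. Each group had 3 samples, each a pool of 4 livers hybridised to its own single-colour Agilent array, so p-values measure the spread between pools. In whole liver, fewer cells of a type and less RNA per cell cannot be told apart.

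A miRNA is a short RNA cut from a hairpin precursor. It guides Argonaute proteins to messenger RNAs that pair with its seed, bases 2 to 8, and lowers their translation and stability. Either arm of the hairpin, 5p or 3p, can give a mature miRNA, and one arm usually accumulates more than the other. Many miRNA hairpins lie inside genes for proteins. Of the 8, miR-3960 is known in mouse osteoblasts, where it and its cluster partner miR-2861 promote differentiation around the transcription factor Runx2. The miR-211 hairpin lies in Trpm1, a gene for a cation channel of melanocytes and retinal bipolar cells, and in human the miRNA is known from melanocytes and melanoma. miR-149-3p has been studied as a p53-responsive miRNA in human melanoma cells.

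RefSeq sequences were found for 7 of the 8, and miR-3960 is named only. They are shown because their base composition, described after the values, differs from that of most other tested miRNAs. Each is written 5′ to 3′ with the seed in capitals.
miR-3102-5p: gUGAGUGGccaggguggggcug
miR-149-3p: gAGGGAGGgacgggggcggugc
miR-1904: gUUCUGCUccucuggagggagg
miR-211-3p: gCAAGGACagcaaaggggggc
miR-3077-5p: cUGCGGACgggugggcgggcaggcc
miR-677-3p: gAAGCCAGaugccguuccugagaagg
miR-3473g: cAAAAGUGaggcuggggaga
No 2 of these 7 share a seed. Among the other mature miRNAs of the RefSeq table, 1 has the seed of miR-3102-5p (miR-702-5p) and 3 have that of miR-149-3p (miR-1943-5p, miR-6967-5p and miR-7016-5p). None of those 4 passed the detection filter.

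In the mouse build GRCm38.p6, all 7 mature sequences lie within the span of a protein gene. The position of miR-3102-5p is chr7:100882388-100882409 on the minus strand, within Arhgef17. miR-149-3p lies at chr1:92850421-92850442 on the plus strand, within Gpc1, which encodes the cell surface proteoglycan glypican 1. miR-1904 lies at chr13:109903819-109903840 on the plus strand, within the cyclic AMP phosphodiesterase gene Pde4d. The Trpm1 span holds miR-211-3p at chr7:64205868-64205888, plus strand. The span of Sap18, a gene for a subunit of a histone deacetylase complex, holds miR-3077-5p at chr14:57798424-57798448, plus strand. miR-677-3p lies at chr10:128085335-128085360 on the plus strand, within Atp5b, which encodes the beta subunit of mitochondrial ATP synthase. miR-3473g lies at chr2:126902290-126902309 on the minus strand, within Sppl2a, a gene for an intramembrane protease. Exon or intron position was not looked up, and the genes' own strands were not used here.

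The arrays were not alike in quality. Strips of spots without signal at the edges took 0%, 31.1% and 0% of the miRNA spots of Metformin arrays 1 to 3, 53.6%, 0% and 33.6% of High fat diet arrays 1 to 3, and 43.8%, 43.5% and 41.1% of Control arrays 1 to 3. These strips were left out, and each probe was read as the median of its remaining spots. Control array 3 lay on another slide with another scan, and the other 8 arrays shared a slide. On that slide Metformin array 1 and the 3 High fat diet arrays were in row 1, and Metformin arrays 2 and 3 and Control arrays 1 and 2 were in row 2. No row of that slide held both a High fat diet and a Control array. High fat diet array 3 stood apart in the muscle markers miR-1a-3p, miR-133a-3p and miR-206-3p, whose summed level was 1.77 times the scaling percentile there, against 0.122 to 0.192 on the other 8 arrays. In this and the sums below, a marker without signal counts at the lowest possible value, 0.0406. A muscle sum of 0.122 thus means that all 3 were at that value. The 4 liver markers fixed for this work, miR-122-5p, miR-192-5p, miR-194-5p and miR-148a-3p, were detected on all 9 arrays, and none passed the test in any comparison. The 2 brain markers and the 2 pancreas markers were detected on none. Markers of other cells that liver can hold are given next. Of 4 mesenchyme markers 1 could be tested, miR-199a-3p, and it was higher in High fat diet than in Control (0.31, adjusted p from limma 0.0301). The summed level of that list was 0.333 to 0.348 times the scaling percentile in Metformin, 0.351 to 0.368 in High fat diet and 0.306 to 0.317 in Control, with miR-143-3p and miR-145a-5p detected on no array. Of 2 red blood cell markers 1 could be tested, miR-451a, which differed by −1.01 in Metformin minus High fat diet (adjusted p from limma 0.158) and by −0.90 in Metformin minus Control (adjusted p from limma 0.15). That list summed to 0.301 to 0.343 in Metformin, 0.545 to 0.735 in High fat diet and 0.378 to 0.956 in Control, with miR-144-3p detected on no array. Of 4 leukocyte markers 2 could be tested and neither passed, with sums of 0.323 to 0.358 in Metformin, 0.343 to 0.404 in High fat diet and 0.335 to 0.392 in Control, and miR-150-5p and miR-155-5p detected on no array. The part of these cells in the readings of the 8 was not tested.

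The description as low-abundance miRNAs did not hold for all 8. Over a mean local background of 16.1 to 21.0 on the arrays, the background-subtracted intensity of 6 of them lay between 9.26 and 56.9 arbitrary units on the 9 arrays. miR-3960 gave 419 to 620 units and miR-3473g gave 224 to 274 units, so neither was dim. Intensity also depends on the probe, and the miRNAs are not ranked against each other. Each of the 8 was read by 2 probes with 15 spots per array, of which 5 to 15 were used for the brighter probe. The brighter probe was detected on all 9 arrays for 6 miRNAs. For miR-149-3p it was detected on 3 Metformin, 1 High fat diet and 2 Control arrays. For miR-3077-5p it was detected on 3 Metformin, 1 High fat diet and 3 Control arrays.

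**Figure D1:**
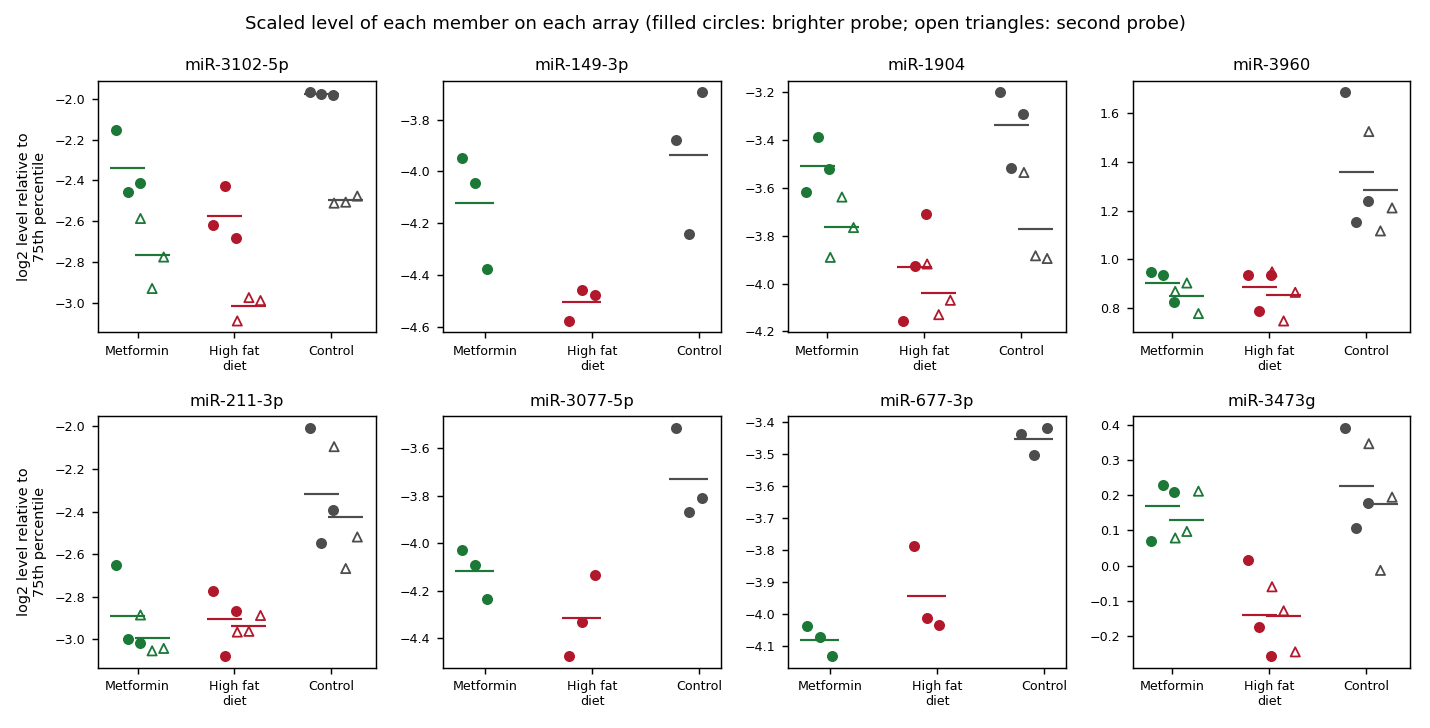
Level of each of the 8 miRNAs on the 9 arrays, as log2 of intensity over the array's scaling percentile (vertical axis). Filled circles are the brighter probe. Open triangles are the dimmer probe, drawn where it gave a signal. Metformin is on the left, High fat diet in the middle and Control on the right. Points are arrays and lines are group means of a probe. All High fat diet circles lie below all Control circles in the 8 panels, which is how the miRNAs were chosen.

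Levels are given below for the brighter probe as log2 of the intensity relative to the 75th percentile of the same array, computed from probes that all 9 arrays detected. A value of 0 is therefore the intensity of that percentile, and the lowest value a probe could take was −4.62. Within each group, values stand in the order of array 1, 2 and 3.

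miR-3960 read 0.95, 0.93 and 0.82 in Metformin, 0.93, 0.79 and 0.94 in High fat diet, and 1.69, 1.15 and 1.24 in Control. Metformin and High fat diet arrays overlapped, and both lay below every Control array. Control array 1 was the highest. miR-211-3p read −2.65, −2.999 and −3.02 in Metformin, −2.77, −3.08 and −2.87 in High fat diet, and −2.01, −2.55 and −2.39 in Control. It showed the same order as miR-3960, again with Control array 1 highest and with Metformin and High fat diet arrays mixed.

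miR-149-3p read −3.95, −4.05 and −4.38 in Metformin, −4.58, −4.46 and −4.48 in High fat diet, and −3.88, −4.24 and −3.69 in Control. Its High fat diet arrays were close to the lowest possible value, and the Metformin arrays lay above them and overlapped the Control arrays. miR-1904 read −3.62, −3.39 and −3.52 in Metformin, −4.16, −3.93 and −3.71 in High fat diet, and −3.20, −3.52 and −3.30 in Control. Here too no Metformin array was as low as any High fat diet array, and Metformin and Control arrays overlapped. miR-3473g read 0.07, 0.23 and 0.21 in Metformin, 0.02, −0.17 and −0.26 in High fat diet, and 0.39, 0.11 and 0.18 in Control. Its Metformin arrays were above every High fat diet array and mixed with Control.

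miR-3102-5p read −2.15, −2.46 and −2.41 in Metformin, −2.62, −2.43 and −2.68 in High fat diet, and −1.97, −1.98 and −1.98 in Control. Metformin array 2 fell among the High fat diet arrays, and no Metformin array reached the Control arrays. miR-3077-5p read −4.03, −4.09 and −4.23 in Metformin, −4.48, −4.33 and −4.13 in High fat diet, and −3.51, −3.87 and −3.81 in Control. It had the same order, near the lowest possible value in High fat diet. miR-677-3p read −4.04, −4.07 and −4.13 in Metformin, −3.79, −4.01 and −4.03 in High fat diet, and −3.44, −3.50 and −3.42 in Control. It was the one of the 8 with all Metformin arrays below all High fat diet arrays; the closest pair, Metformin array 1 and High fat diet array 3, read nearly the same.

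In High fat diet minus Control, the contrast that chose them, differences ran from −0.60 for miR-3102-5p to −0.36 for miR-3473g, with a median of −0.57 against 0.03 over the 143 tested miRNAs. All 8 were called lower there by limma, where 9.79% of all tested miRNAs were called lower, and nothing is read from that count. Just inside the threshold of 0.05 on the adjusted p was miR-3473g (−0.36, adjusted p from limma 0.0498). Just outside were miR-1895 (−0.44) and miR-2861 (−0.31), both at an adjusted p from limma of 0.0624. miR-2861 is the cluster partner of miR-3960. Besides the 8, 6 miRNAs were called lower. The 3 of these with the lowest adjusted p were miR-202-3p (−0.69), miR-6538 (−0.67) and miR-3963 (−0.53). The calls depended on some single arrays, while the size of the differences moved most without Control array 1. Without that array the median of the 8 was −0.38 and 0 of 8 were called, with 2 of all 143 called lower. Without Control array 2 or 3 the median was −0.61 and −0.55, and all 8 were still called. Over all tested miRNAs, 15 of 143 and 23 of 144 were then called lower. Without High fat diet array 1, 2 or 3 the median was −0.49, −0.53 and −0.53, and 2, 2 and 4 of 8 were called. Those called lower over all tested miRNAs were 4 of 146, 4 of 147 and 10 of 143. The Metformin arrays enter this contrast only through the model's shared spread and the filter. Without Metformin array 1, 2 or 3 the median stayed at −0.57 and 6, 4 and 6 of 8 were called. Over all tested miRNAs, 11 of 143, 8 of 145 and 11 of 144 were called lower. The fit with the row on the slide as a block left out Control array 3 and joins the groups only through the Metformin arrays. In it the median was −0.66, and 0 of 8 and 0 of all 144 tested miRNAs were called. This contrast chose the 8, so nothing is read from these counts. No value within a row could be had for this contrast. High fat diet array 3 is the array with muscle markers, and whether those markers bear on the 8 was not tested.

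Before scaling, the lower reading did not show as a gap between the groups. The background-subtracted intensity of miR-3960 was 485, 441 and 419 in Metformin, 423, 482 and 618 in High fat diet, and 620, 492 and 532 in Control. That of miR-677-3p was 15.3, 13.8 and 13.5 in Metformin, 16.03, 17.3 and 19.8 in High fat diet, and 17.8, 19.5 and 21.1 in Control. In 0 of the 8 were all High fat diet arrays below all Control arrays before scaling, where 0.699% of the tested miRNAs were. Over the tested miRNAs, 43.4% had all High fat diet arrays above all Control arrays before scaling, and 0 of the 8 did. The scaling percentile was 231 to 252 in Metformin, 221 to 323 in High fat diet and 193 to 225 in Control. The 8 read low in High fat diet relative to other detected miRNAs, many of which were brighter there. The choice of the 8 favours this, so nothing is read from these counts and medians. Without scaling the median difference was −0.17 for the 8 and 0.37 for all tested miRNAs.

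**Figure D2:**
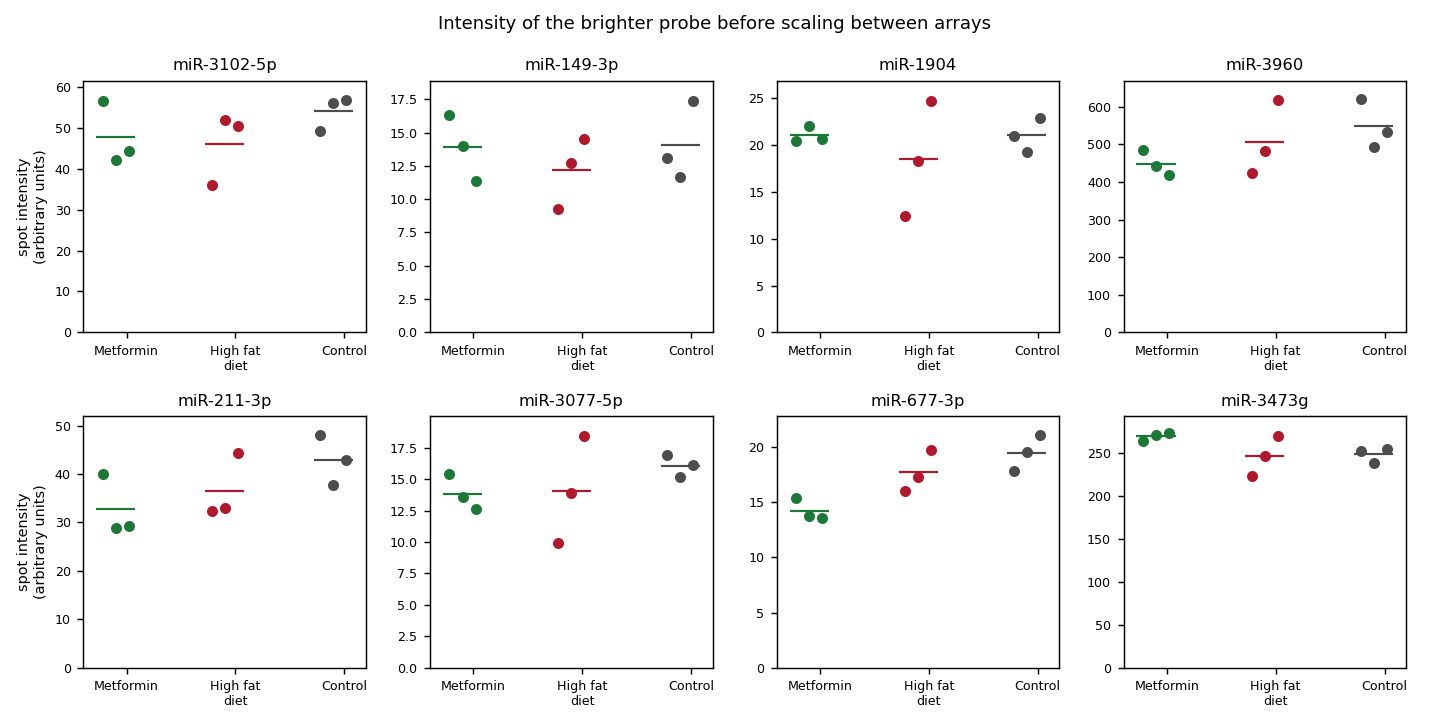
Background-subtracted intensity in arbitrary units (vertical axis, from 0) of the brighter probe before scaling, on the 9 arrays, with Metformin on the left, High fat diet in the middle and Control on the right. Points are arrays and lines are group means. High fat diet and Control arrays overlap in all 8 panels, and the Metformin arrays lie below all others for miR-677-3p.

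Metformin against High fat diet asks whether the drug, on the same diet, moved the 8 away from their low reading. Both arms ate the high fat diet, but the High fat diet arrays are those on which the 8 were chosen for being low, so a positive difference is favoured by the choice. None of the 8 passed the test (limma, adjusted over 143 miRNAs), where 1.4% of the tested miRNAs did. At an unadjusted p under 0.05, 4 of 8 were higher, miR-149-3p among them, against 4.9% of the tested miRNAs. Another of them, miR-3102-5p, had an unadjusted p from limma of 0.0499. The choice favours such a count, so nothing is read from it. The largest difference was that of miR-1904, at 0.42 (SE 0.13, 95% interval 0.13 to 0.71, adjusted p from limma 0.207, 1.34-fold). The difference of miR-3473g was 0.31 (SE 0.11, adjusted p from limma 0.307). In both, the Metformin arrays stood clear of the High fat diet arrays on the high side, which held for 8.39% of the tested miRNAs. The Metformin arrays of miR-149-3p stood clear as well, but this miRNA passed the detection filter only through the Metformin group. Its High fat diet arrays were mostly not detected and close to the lowest possible value, so its difference of 0.38 (SE 0.15, adjusted p from limma 0.374) is a description.

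miR-3102-5p differed by 0.24 (SE 0.11) and miR-3077-5p by 0.20 (SE 0.12), with overlapping arrays. miR-211-3p and miR-3960 each differed by 0.02, with 95% intervals from −0.33 to 0.36 and from −0.28 to 0.31. miR-677-3p was the only one of the 8 with a negative difference, −0.14 (95% interval −0.34 to 0.07). All its Metformin arrays lay below the High fat diet arrays, where 11.9% of the tested miRNAs did so. The median of the 8 was 0.22 against −0.06 over all tested miRNAs, a side that the choice favours. Within row 1, Metformin array 1 against the 3 High fat diet arrays gave a median of 0.27 against −0.06. There 7 of 8 were above 0 and 1 below, where 89 of the 143 tested miRNAs were below 0. The High fat diet arrays are again those of the choice and Metformin has 1 array, so nothing is read from this count.

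Metformin against Control sets the drug and the diet together against chow. The Control arrays are those on which the 8 were chosen for being high, so a negative difference is favoured by the choice. All 8 differences were below 0, as were 72 of the 143 tested miRNAs, and the median was −0.38 against 0.00 over all. Of the 8, miR-677-3p passed the test, and 0.699% of the tested miRNAs were called lower. Its level averaged −4.08 ± 0.05 in Metformin and −3.45 ± 0.05 in Control (SD, n = 3 each), a difference of −0.63 (SE 0.09, 95% interval −0.83 to −0.42, 1.54-fold lower, adjusted p from limma 0.00534). No other miRNA was called lower in this comparison. The call held without each array in turn, with adjusted p from limma between 0.00386 and 0.0392. Within row 2, Metformin arrays 2 and 3 against Control arrays 1 and 2, its difference was −0.63.

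The miR-677-3p call rests on 1 probe near background. Its other probe read at the lowest possible value on all 9 arrays. With normexp background correction the difference was −0.28 (adjusted p from limma 0.176), with no scaling it was −0.45 (adjusted p from limma 0.333), and with the 75th percentile over all miRNA probes it was 0.18 (adjusted p from limma 0.573). In the authors' deposited table it was −0.70 (adjusted p from limma on those values 0.911), and with no filter on dim probes the adjusted p from limma was 0.192. With all spots averaged it was not detected often enough to be tested.

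The other 7 did not pass the test against Control as reported. With quantile normalization miR-3960 passed (−0.34, adjusted p from limma 0.0177), and with the replicate number as a block miR-211-3p passed (adjusted p from limma 0.0143). miR-211-3p differed by −0.57 (SE 0.16, adjusted p from limma 0.0936), and both miR-3960 at −0.46 (SE 0.13) and miR-3102-5p at −0.36 (SE 0.11) had an adjusted p from limma of 0.11. miR-3077-5p differed by −0.39 (SE 0.12, adjusted p from limma 0.15). In these 4 and in miR-677-3p all Metformin arrays lay below all Control arrays. That was 5 of 8, where 13.3% of the tested miRNAs did so. The 8 were chosen for being high on the Control arrays, so nothing is read from this share. miR-149-3p differed by −0.19, miR-1904 by −0.17 and miR-3473g by −0.06, with 95% intervals that included 0. Without Control array 1 the median of the 8 was −0.20. Within row 2 it was −0.47 against 0.06 over all tested miRNAs, with 8 of 8 below 0, as were 60 of the 143. The Control arrays there are among those of the choice, so nothing is read from that count. Whether Metformin arrays lie closer to Control for some of the 8 than for others was not tested.

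**Figure D3:**
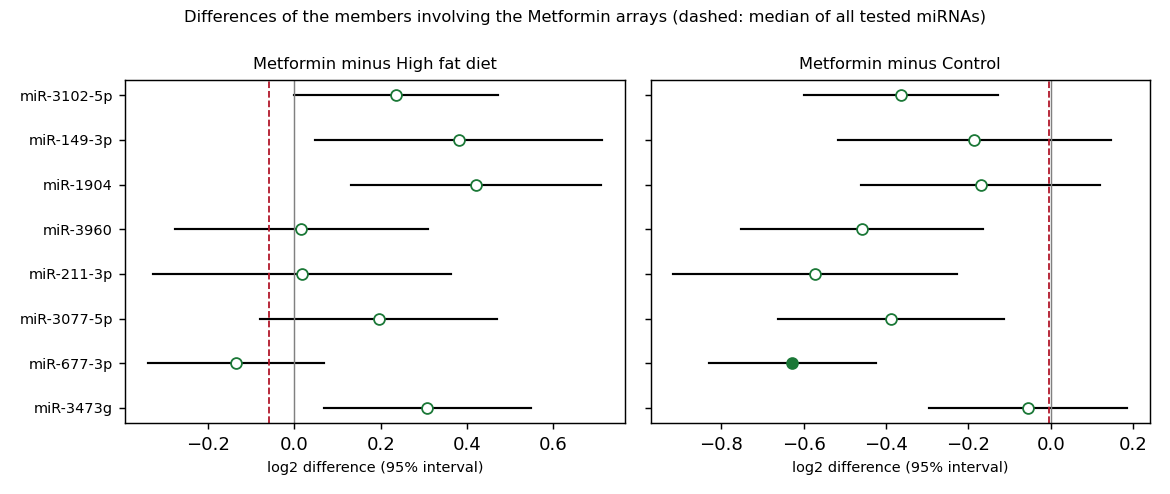
Differences of the 8 miRNAs on the log2 scale (horizontal axis) for Metformin minus High fat diet (left panel) and Metformin minus Control (right panel), with 95% intervals from limma as bars and the median of all 143 tested miRNAs as a dashed line. The filled circle marks the single call after adjustment, miR-677-3p against Control. The other circles are open.

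The dimmer probe of each miRNA read the same arrays and is no independent test. It lay at the lowest possible value on all arrays for miR-149-3p, miR-3077-5p and miR-677-3p. In the 5 miRNAs where it gave a signal, it was lower in High fat diet than in Control in 5, lower in Metformin than in Control in 4, and higher in Metformin than in High fat diet in 3. For miR-3102-5p it read −2.59, −2.93 and −2.78 in Metformin, −3.09, −2.98 and −2.99 in High fat diet, and −2.51, −2.51 and −2.48 in Control, the order of the brighter probe, here with no overlap between Metformin and High fat diet. For miR-1904 it read −3.89, −3.64 and −3.77 in Metformin, −3.92, −4.13 and −4.07 in High fat diet, and −3.54, −3.88 and −3.90 in Control. Its Metformin arrays again stood clear of the High fat diet arrays and among the Control arrays.

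The 8 varied together over the arrays. Pearson's r over the 9 arrays was between 0.41 and 0.96 in their 28 pairs, with a median of 0.70. These values share the arrays, the scaling and the contrast of the rule, and are a description. The mean of the 8 after centring each was 0.01, −0.05 and −0.14 in Metformin, −0.24, −0.26 and −0.21 in High fat diet, and 0.45, 0.14 and 0.29 in Control. The choice of the 8 sets the High fat diet arrays low and the Control arrays high here, so nothing is read from the place of the Metformin arrays between them. With the 75th percentile over all miRNA probes the median of the 8 in Metformin was 0.49 above High fat diet and 0.43 above Control. The median of all tested miRNAs was then 0.21 and 0.80. Among the other 135 tested miRNAs, those most like this mean were miR-5126 (r = 0.97), miR-6538 (r = 0.96) and miR-8101 (r = 0.94), all called lower in High fat diet. The sequences of these 3 are given for comparison with those above, seeds in capitals.
miR-5126: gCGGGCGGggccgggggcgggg
miR-6538: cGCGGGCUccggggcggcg
miR-8101: gGCGAGCGgagccggaggagcc
Their positions in GRCm38.p6 are chr1:84695890-84695911 (plus strand), chr12:26414970-26414988 (minus strand) and chr11:102230103-102230124 (minus strand).

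Other products of the same hairpins and close family names gave little to set beside the 8. Of 17 such relatives, 15 were on the array and 12 were detected on no array, among them miR-211-5p, miR-677-5p, miR-3077-3p and miR-3102-3p. miR-149-5p was detected on 1 array. For miR-149 and miR-211 these are the arms usually counted as the main product. The 2 relatives that could be tested, miR-3473a and miR-3473b, passed in no comparison. Their High fat diet minus Control differences were −0.06 and −0.12, against −0.36 for miR-3473g. Despite the shared name, the mature sequences begin differently.
miR-3473a: uGGAGAGAuggcucagca
miR-3473b: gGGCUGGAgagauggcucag
In GRCm38.p6 they lie at chrX:162874920-162874937 (minus strand) and chr10:41670774-41670793 (plus strand).

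Most of the 7 sequences found for the 8 were rich in guanine, which the rule did not use. The median guanine share of the 7 with a sequence was 47.6% (34.6% to 68.2%), against 27.3% in the other 118 tested miRNAs with a sequence and 26.9% in all 1679 mature miRNAs of the table. The run GGG, searched on the RNA strand after the sequences had been seen, occurred in 6 of 7 (85.7%), against 30.5% and 30.6% in those sets. The longer run GGGG, which contains GGG, occurred in 4 of 7 (57.1%), against 13.6% and 11.2%. The trait is not particular to the 8. The 6 other miRNAs called lower in High fat diet had a median guanine share of 56.2% (10.5% to 77.3%). Of these 6, 66.7% held GGG and 50% held GGGG. miR-677-3p was the exception, with the lowest guanine share of the 7 and no GGG.

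Guanine-rich miRNAs outside the 8 also tended to read low in the same arrays. Of 28 other tested miRNAs with more than 40% guanine, 24 were below 0 in High fat diet minus Control (median −0.30) and 22 in Metformin minus Control (median −0.27). Of the 90 with 40% or less, 24 were below 0 in High fat diet minus Control (median 0.09) and 38 in Metformin minus Control (median 0.04). In Metformin minus High fat diet 17 of the 28 were above 0 (median 0.06), and 24 of the 90 (median −0.07). Across the 118, Pearson's r between guanine share and difference was −0.43 in High fat diet minus Control, −0.37 in Metformin minus Control and 0.18 in Metformin minus High fat diet. The 118 share the 9 arrays and their probes share base composition, and the first 2 values share the Control arrays. The 40% limit was chosen after the data were seen. Whether base composition of the probes has a part in the readings of the 8 was not tested.

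**Figure D4:**
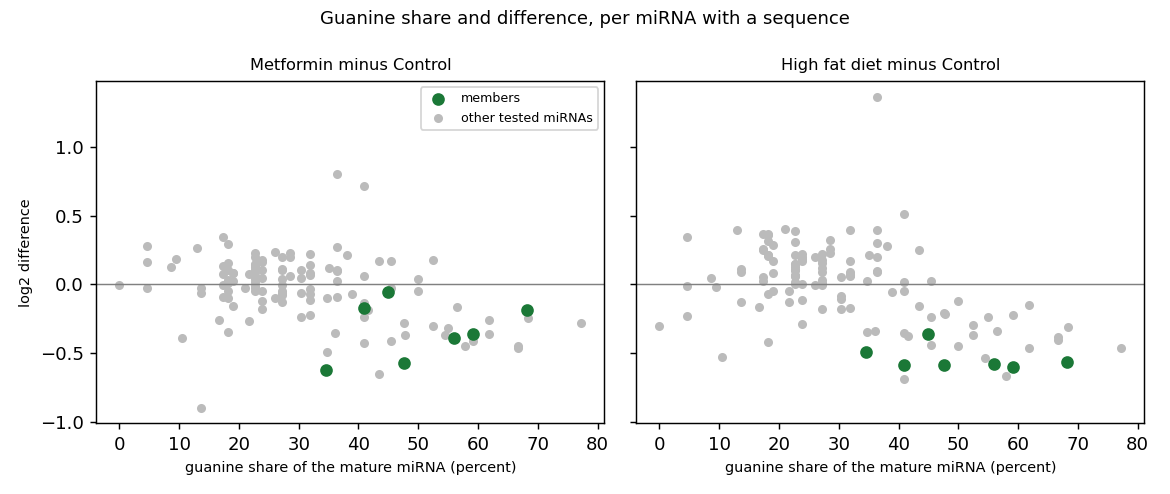
Guanine share of the mature sequence in percent (horizontal axis) against the log2 difference (vertical axis) in the comparisons named above each panel, for the tested miRNAs with a RefSeq sequence. Large green points are 7 of the 8 miRNAs described here and small grey points the other 118. In High fat diet minus Control the points above 40% guanine lie mostly below 0.

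The direction of the 8 depended on the scaling in some comparisons. With the 75th percentile taken over all miRNA probes, dark ones included, the median of all tested miRNAs moved to 0.80 in Metformin minus Control and 0.56 in High fat diet minus Control. The median of the 8 was then 0.43 and −0.05, still below that of all tested miRNAs in both. The Control arrays are those of the choice, which favours this side. With all spots averaged, 7 of the 8 could be tested, and their medians were 0.41 in Metformin minus High fat diet, −0.26 in Metformin minus Control and −0.67 in High fat diet minus Control, against 0.16, 0.02 and −0.22 over all. In the authors' deposited table, High fat diet array 1 held miR-149-3p, miR-1904 and miR-677-3p at −4.03 on its log2 scale, which corresponds to the software's smallest signal of 0.1. Control array 2 held miR-3077-5p at −4.38, the same smallest signal on that array, against 0.32 and −0.54 on Control arrays 1 and 3.

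**Figure D5:**
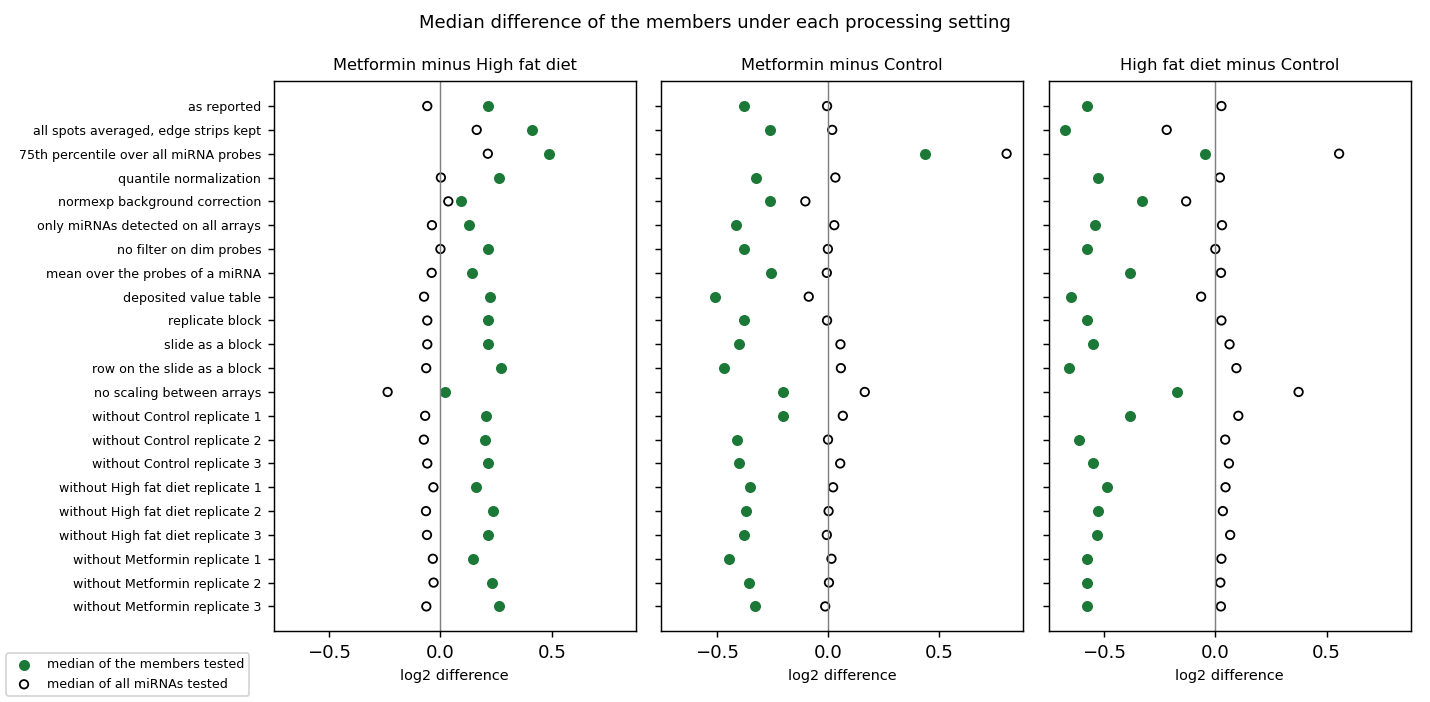
Median log2 difference (horizontal axis) of the 8 miRNAs (filled) and of all tested miRNAs (open) under each way of processing (rows), for the comparisons named above each panel. The filled points lie left of the open ones in both comparisons against Control and right of them in Metformin minus High fat diet in every row. All rows use the arrays on which the 8 were chosen, which favours these sides, so nothing is read from them.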

How the data were processed

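Liver miRNA of 9 pools was measured on single-colour Agilent arrays. Per the file headers, the authors' scanner files hold spot intensity after background subtraction, made with Agilent Feature Extraction 11.5.1.1 (10.7 per the submitters' processing notes), with no scaling between arrays. The authors' deposited table gives log2 values. These equalled the log2 total gene signal of the software shifted by an array-specific constant (−2.35 to −0.71), apart from 0 to 6 miRNAs an array that were off by over 0.001. The centring rule behind those constants is unknown, and the column medians ran from −5.67 to −4.03.

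The 4415 probes were read on 56430 spots per array, and no spot was saturated. Edge strips were found from bright probes (80th percentile of spots above 100) in steps of 4 columns, while at least 10% of spots fell below 50% of that level. The 425 probes with under 3 spots left on any array were dropped. The median spot was scaled to its array's 75th percentile, computed from the 187 probes that every array detected, floored at the 1st percentile of detected values (0.0406) and put on the log2 scale. Detection needed a share above 0.5 of the spots marked well above background. The probe with the highest mean stood for a miRNA, and miRNAs detected on all 3 arrays of a group were tested with limma 3.58.1 in R 4.3.3 (3 group means, two-sided, Benjamini-Hochberg over 143 miRNAs). With 3 arrays a group, the smallest exact permutation p is 0.1. The number of arrays limits the precision: the median SE was 0.12. Strip finding and limma were tested on simulated data.

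The 8 miRNAs and all lists were chosen with earlier results of these data known. Named besides them were threshold neighbours, the 3 tested miRNAs most alike over the arrays by Pearson's r, and relatives by hairpin or family name. Alternatives covered the spots, scaling, background, filter, probe summary, deposited table, replicate, slide and row blocks and leaving out each array. The row block was fitted without Control array 3, which lay on another slide. The unscaled fit was chosen after seeing the data. For normexp (offset 50) the median spot signal was used, in place of the mean signal planned. Replicate numbers were not used as pairs in the fit as reported.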

Additional observations from a re-analysis of the deposited data

How the results depend on the processing

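Counts of miRNAs called of all tested moved as follows. Metformin minus High fat diet gave 2 calls as reported, 0 with all spots, the percentile over all probes, quantile normalization, normexp, no filter, the mean of probes, the deposited table, the replicate block or the row block, and 1 with the slide block. Without filter 15 had an unadjusted p under 0.05 by limma. Leaving out each array gave 0 to 3. Metformin minus Control gave 2 as reported, 0 with all spots, normexp, no filter or the deposited table, 98 with the percentile over all probes, 7 with the slide block and 5 with the row block. Leaving out each array gave 1 to 8. High fat diet minus Control gave 20 as reported, 9 with all spots, 1 with the percentile over all probes, 0 with no filter, the deposited table or the row block, 39 with the slide block and 53 with no scaling. Leaving out each array gave 6 to 40. The no-filter fit tests 1879 miRNAs. For the other changes the cause was not tested.

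Log2 differences that changed sign were these. In Metformin minus High fat diet, miR-211-3p was −0.015 with all spots, −0.019 with the mean of probes, −0.25 in the deposited table and −0.16 with no scaling. miR-3960 was −0.00331 in the deposited table and −0.16 with no scaling, and miR-3077-5p −0.017 with no scaling. miR-677-3p was 0.14 with the percentile over all probes, 0.066 with normexp and 1.28 in the deposited table. In that table High fat diet array 1 held miR-677-3p at the software's smallest signal. In Metformin minus Control with the percentile over all probes, miR-3102-5p was 0.45, miR-149-3p 0.59, miR-1904 0.64, miR-3960 0.35, miR-211-3p 0.24, miR-3077-5p 0.42, miR-677-3p 0.18 and miR-3473g 0.75 (adjusted p from limma 0.0306). In the deposited table miR-1904 was 0.40 and miR-3077-5p 1.01. With no scaling miR-1904 was 0.00224 and miR-3473g 0.12. In High fat diet minus Control with the percentile over all probes, miR-3960 was 0.064, miR-677-3p 0.046 and miR-3473g 0.17, and in the deposited table miR-3077-5p was 0.98. Leaving out each array, miR-3473g ran from −0.11 to 0.12 in Metformin minus Control, and in Metformin minus High fat diet miR-3960 ran from −0.035 to 0.055 and miR-211-3p from −0.10 to 0.081.

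Replicate numbers were not used as pairs in the fit as reported. Same-numbered deviations correlated between −0.24 and 0.43, which does not settle whether the numbers pair the samples. With the replicate block the counts of calls were 0, 3 and 22 for Metformin minus High fat diet, Metformin minus Control and High fat diet minus Control, and miR-211-3p passed in Metformin minus Control (adjusted p from limma 0.0143). The dim probes limit what can be read: 6 of the 8 miRNAs gave background-subtracted intensities of 9.26 to 56.9 over a local background of 16.1 to 21.0.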
